A study of Homo sapiens with 40 samples.

Results

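Human chromosome 18 was examined in bins of 25 kb for H3K27me3, the histone mark laid down by Polycomb repressive complex 2, in myeloma cells from which the histone methyltransferase NSD2 had been removed. The members were all bins of the chromosome on hg38 with starts at multiples of 25 kb, 3211 of 121213 bins over chromosomes 1 to 22 and X. The chromosome itself was chosen by a measured value, its high share of bins gained in NSD2 knockout (KO) clones against their parental line, so the KO values below are a description and support nothing. The value of a bin is the percent of its length that lay inside the called peaks of a library (covered percent).

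KMS-11 is a myeloma cell line whose t(4;14) translocation drives overexpression of NSD2. CUT&Tag uses an antibody to bring a transposase to a histone mark, so that DNA beside the mark is cut and tagged for sequencing. Peak lists of 30 H3K27me3 libraries were used, 15 groups of 2, each made from 50000 nuclei with 13 PCR cycles. A further 10 libraries in the labels (2 IgG, 4 H3K27ac, 4 H3K4me3) were not analysed here. The KO arm held the KO parental line and NSD2 KO clones 3 and 12. The dTAG arm held a parental line and 2 clones with dTAG-tagged NSD2, NSD2-dTAG clone 8 and clone 11, each at days 0, 7, 14 and 21 of dTAGV-1, a compound that directs a dTAG-tagged protein to the VHL ubiquitin ligase for degradation. The labels give 100 nM dTAGV-1 for the NSD2-dTAG cells and no dose for the parental line. Each clone is a single clone, and its days are not independent clones. The series text calls clone replicates biological, while the labels do not say whether parental libraries came from separate cultures. Their spread, and with it the p-values, may then be technical only. Peak lists cannot show whether NSD2 was lost, so "NSD2 present" (the 10 parental libraries and the 4 day 0 libraries of the dTAG clones) and "NSD2 removed" (the other 16) follow the labels.

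H3K27me3 marks chromatin silenced by Polycomb, often over developmental genes and their CpG-rich promoters. NSD2 places H3K36me2 over genes and between them, and H3K36me2 on a histone tail impairs the placing of H3K27me3 on the same tail. In t(4;14) myeloma the excess of NSD2 is known to spread H3K36me2 and to confine H3K27me3 to fewer places. Chromosome 18 is known as a gene-poor chromosome of the human genome.

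Promoters show what kinds of sequence on the chromosome carried a peak before and after the removal of NSD2. The 250 bases before the start of 4 genes are printed from RefSeq (GRCh38.p14, hg38), 5′ to 3′ on the strand of the gene, with each CG dinucleotide in capitals. All of them lie outside every gene annotated by RefSeq on the chromosome, as did 141 of 363 windows, and they were selected on their values after these had been seen. ROCK1, a kinase that acts on the cytoskeleton, shows a promoter under a peak in every library. C18orf63 lies in a stretch of gained bins, CTAGE1 has a CG-rich promoter with no peak in any parental or day 0 library, and SERPINB7, a serine protease inhibitor, has a CG-poor one. ROCK1 lies on the minus strand (chr18:21111814-21112063), C18orf63 on the plus strand (chr18:74315589-74315838), CTAGE1 on the minus strand (chr18:22417916-22418165) and SERPINB7 on the plus strand (chr18:63752807-63753056).
ROCK1: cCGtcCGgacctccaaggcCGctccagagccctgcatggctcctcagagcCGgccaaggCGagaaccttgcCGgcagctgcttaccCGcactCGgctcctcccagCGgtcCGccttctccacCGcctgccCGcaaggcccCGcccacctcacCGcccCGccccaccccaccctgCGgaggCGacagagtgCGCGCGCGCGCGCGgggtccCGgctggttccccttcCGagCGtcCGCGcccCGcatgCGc
C18orf63: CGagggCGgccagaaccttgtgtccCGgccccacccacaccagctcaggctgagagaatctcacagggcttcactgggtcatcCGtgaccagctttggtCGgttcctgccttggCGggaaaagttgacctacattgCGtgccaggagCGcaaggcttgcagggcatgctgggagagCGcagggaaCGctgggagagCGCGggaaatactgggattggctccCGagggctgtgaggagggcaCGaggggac
CTAGE1: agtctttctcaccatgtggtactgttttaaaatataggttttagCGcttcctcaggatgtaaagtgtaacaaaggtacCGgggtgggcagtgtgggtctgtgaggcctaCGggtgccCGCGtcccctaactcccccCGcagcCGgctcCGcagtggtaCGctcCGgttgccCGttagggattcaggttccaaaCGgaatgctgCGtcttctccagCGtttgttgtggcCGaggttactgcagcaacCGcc
SERPINB7: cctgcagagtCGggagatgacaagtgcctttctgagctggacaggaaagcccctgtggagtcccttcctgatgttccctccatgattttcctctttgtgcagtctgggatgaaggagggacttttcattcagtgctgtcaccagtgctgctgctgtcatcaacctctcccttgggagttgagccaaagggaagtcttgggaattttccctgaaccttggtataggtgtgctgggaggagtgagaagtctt
The ROCK1 window held 31 CG and had a peak in 30 of 30 libraries. The C18orf63 window held 14 CG and had a peak in 1 of 10 parental libraries and 0 of 4 day 0 libraries of the dTAG clones. At days 7, 14 and 21 it had a peak in 2, 0 and 3 of 4, and in 3 of 4 KO libraries. The CTAGE1 window, with 16 CG, had one in 0 of 10 parental and 0 of 4 day 0 libraries. At days 7, 14 and 21 it had one in 1, 2 and 2 of 4, and in 2 of 4 KO libraries. The SERPINB7 window held 1 CG, and a peak lay over it in 0 of 10 parental and 0 of 4 day 0 libraries. At days 7, 14 and 21 this was so in 2, 2 and 1 of 4, and in 3 of 4 KO libraries. In the CTAGE1 and SERPINB7 windows no library labelled NSD2 present had a peak, and at no time did all removed libraries have one.

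The share of chromosome 18 inside H3K27me3 peaks was higher in the libraries labelled NSD2 removed. In NSD2-dTAG clone 8, replicates 1 and 2 had 1.02% and 0.488% of chromosome 18 in peaks at day 0. Treated libraries of clone 8 had 2.64% and 3.20% (day 7), 4.07% and 2.21% (day 14) and 4.65% and 3.25% (day 21). In clone 11 the pairs were 0.746% and 0.663% (day 0), 3.51% and 3.63% (day 7), 4.36% and 3.27% (day 14) and 4.07% and 2.41% (day 21). No treated library of either clone overlapped the day 0 libraries, and most of the change was in place by day 7. The means of the 4 clone libraries were 0.730% ± 0.223 (SD) at day 0, 3.25% ± 0.444 at day 7, 3.48% ± 0.963 at day 14 and 3.60% ± 0.977 at day 21, which is 4.45, 4.76 and 4.93 times the day 0 mean. In the dTAG parental line, given the compound for the same days, they were 1.25% and 0.558% (day 0), 1.32% and 0.764% (day 7), 1.43% and 0.786% (day 14) and 1.77% and 0.869% (day 21). Its replicates stood farther apart than its days, and its highest library lay below every treated clone library. Without replicate 1 of day 21, the parental difference from day 0 to day 21 turned from 0.416 to -0.0343 percentage points. As a description of the contrast that chose the chromosome, the KO parental libraries had 1.11% and 0.712%, KO clone 3 had 6.09% and 4.85%, and KO clone 12 had 3.98% and 2.77%.

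Sequencing depth is not listed, and the length of a peak list can move with it. A background pileup (fragments per position), solved from the fold and p of short peaks under assumptions given with the processing, ranged from 0.922 to 3.26 over the libraries. Its mean in the dTAG clones was 1.44 at day 0 and 2.20, 2.14 and 2.33 at days 7, 14 and 21. Over all libraries it was 1.79 in those labelled NSD2 present and 2.29 in those labelled removed. Estimated depth thus differed in the same direction as coverage. Within either set of libraries the covered percent of chromosome 18 tended to be higher at higher pileup, which the plot of coverage against estimated depth shows. The deepest library by this estimate, dTAG parental day 21 replicate 1 at 3.26, had 1.77% of chromosome 18 in peaks, while clone 11 day 21 replicate 2, at 1.61, had 2.41%. The part of depth in the size of the change was not tested beyond the fit with pileup as a covariate given below.

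**Figure D1:**
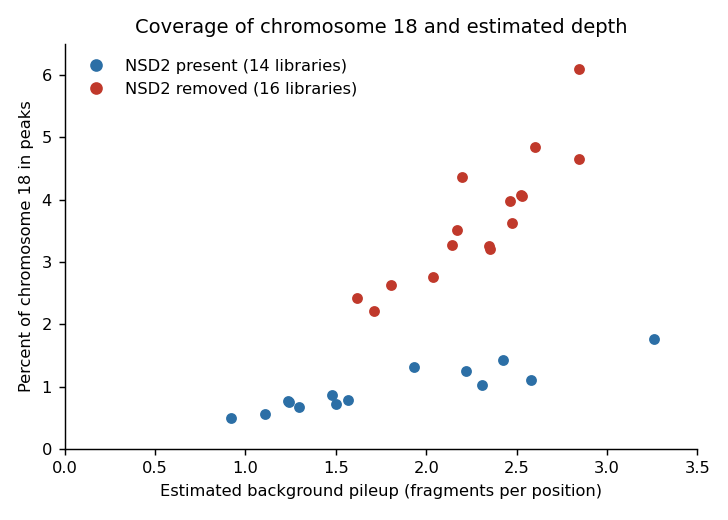
Percent of chromosome 18 inside called peaks (vertical axis) against the estimated background pileup in fragments per position (horizontal axis), 1 point a library, blue for 14 libraries labelled NSD2 present and red for 16 labelled NSD2 removed. The red points lie between 2.21% and 6.09% and the blue ones between 0.488% and 1.77%, with no overlap in height at any depth.

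Within a library, coverage of chromosome 18 was set against coverage of all the other chromosomes, a ratio in which list length cancels in part. The ratio lay between 0.396 and 0.531 in the 14 libraries labelled NSD2 present and between 0.828 and 1.10 in the 16 labelled removed, so the 2 sets did not overlap. With the lists as deposited, the removed libraries lay close to the coverage of the rest. In the dTAG clones it was 0.427 ± 0.0182 at day 0, 0.874 ± 0.0343 at day 7, 0.923 ± 0.0600 at day 14 and 0.899 ± 0.0241 at day 21 (SD, n = 4 libraries each), with every treated library above every day 0 library. The dTAG parental line had a mean of 0.459 at day 0 and 0.498 at day 21. In bins without a protein-coding gene the ratio moved further, from 0.411 at day 0 to 1.07 at day 21 in the dTAG clones, and it lay between 0.386 and 0.566 in the present and between 0.940 and 1.26 in the removed libraries. The KO clones had a mean ratio of 1.01 against 0.401 in their parental line. With every list shortened to the same length the removed libraries stayed below the rest. The mean ratio was then 0.743 (0.707 to 0.802) in the dTAG clones at day 21, against 0.435 at day 0, and 0.726 in the KO clones. Among peaks with -log10 q of at least 5 it was 0.712 at day 21 and 0.658 in the KO clones. Of the called length on chromosome 18, gene-free bins held between 26.9% and 36.2% in present and between 43.7% and 50.6% in removed libraries.

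**Figure D2:**
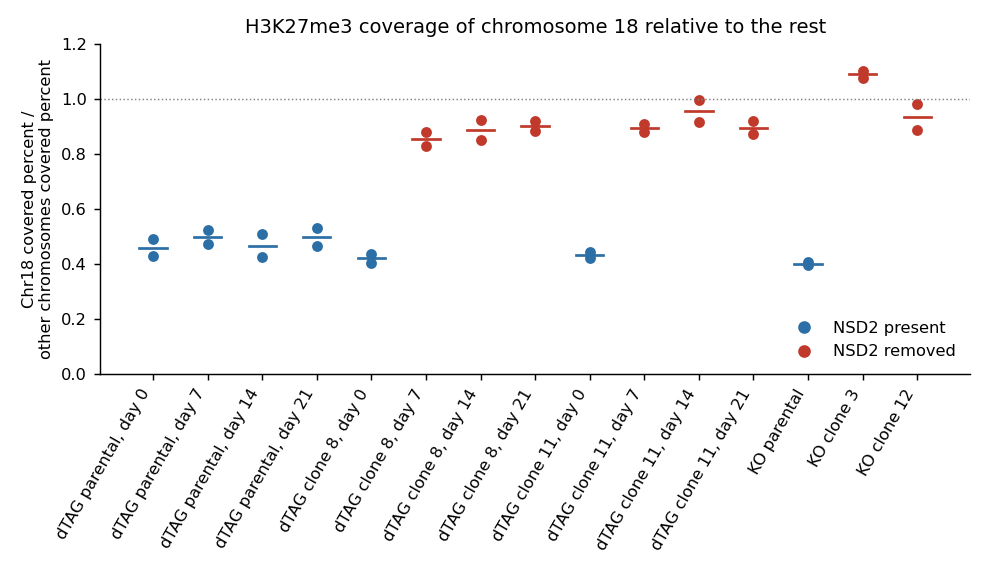
Ratio of the covered percent of chromosome 18 to that of the other chromosomes (vertical axis, no unit) in each of 15 groups, 1 point a library, blue for NSD2 present and red for NSD2 removed by the labels, with a dotted line at 1. All blue points lie at or below 0.531 and all red points at or above 0.828, also at day 7.

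Set beside the other chromosomes, chromosome 18 had 3.34 protein-coding genes per Mb, the second lowest of 23 after chromosome 13 with 2.94. Its fold of coverage at day 21 over day 0, 4.93, ranked 1 of 23, and its share of tested bins gained at day 21, 59.8%, ranked 3 behind chromosome 5 with 59.9%. Chromosome 13, as gene-poor, had a fold of 2.68 and a ratio to the rest of 0.322 at day 21, and gene-rich chromosome 19 had a fold of 1.08 with 9.09% of its tested bins gained. The chromosome with the fewest genes per Mb was thus not the one with the largest fold. No test between chromosomes was made.

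Of the 3211 bins, 727 had no peak in any library, 1048 had peaks but a mean under 1%, and 1436 passed the filter (mean over all libraries from 1% to 99%) and were tested. The longest stretch without any peak ran over 6.025 Mb (chr18:15025001-21050000), which includes the centromeric region. Peaks lay in 1088 bins in some present library and in 2470 bins in some removed library, 1396 bins had peaks only in removed libraries, and 14 only in present ones. A day 0 library of the dTAG clones had peaks in a mean of 492 bins (371 to 589), and a day 21 library in 1476 (1330 to 1685). Of the tested bins, 472 had no coverage in any present library, so they passed the filter only through the libraries in which they were high, and counts over the tested bins are not counts over the chromosome.

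Bins were compared with limma on the covered percent (1 mean for each of the 15 groups, Benjamini-Hochberg over all 49812 tested bins of the genome), and a bin is called gained or lost at an adjusted p under 0.05. At day 7, 689 of 1436 tested bins of chromosome 18 were gained (48.0%, against 39.5% of all tested bins) and 0 lost (0.159% of all). At day 14, 835 were gained (58.1%, against 47.1%) and 0 lost (0.387% of all), and at day 21, 859 were gained (59.8%, against 51.6%) and 2 lost (0.367% of all). At an unadjusted p under 0.05 in limma, 0 bins fell at day 7 and 1 at day 14. The 3 times share the day 0 libraries. Covered percent was higher at day 21 in 1371 of the 1436 tested bins. Without clone 8 day 14 replicate 1, the count at day 14 was 519.

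The counts depended on what was called a peak. Scaling every library to the same called length gave 705 gained and 87 lost bins at day 21 (49.1% and 6.06%, against 37.7% and 17.1% of all tested bins). The counts were 735 and 85 at day 14, while day 7 had 605 and 62. With every list shortened to the same length, which left 523 tested bins, 70 were gained and 13 lost at day 21 (13.4% and 2.49%, against 8.80% and 6.48% of all). Day 14 then had 73 and 8, and day 7 had 35 and 4. Among peaks with -log10 q of at least 5 (352 tested bins) limma called 0 gained at day 21, with 48 higher at an unadjusted p under 0.05, and among peaks with a fold of at least 4 (227 tested bins) 0, with 16 higher unadjusted. With pileup as a covariate the counts were 569 gained and 18 lost (39.6% and 1.25%, against 32.5% and 4.59% of all). With the filter applied to the 10 parental libraries alone, a choice made after the data were seen, 312 of 621 bins were gained at day 21 (50.2%, against 36.6% of all bins so tested).

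In the dTAG parental line, limma called 0 of 1436 bins gained and 0 lost at day 7, day 14 and day 21 (0% of all tested bins gained each time). At an unadjusted p under 0.05, 4 bins were higher and 2 lower at day 7, 7 higher and 0 lower at day 14, and 17 higher and 0 lower at day 21. Tested as a difference of changes, the day 21 change of the clones minus that of the parental line was called higher in 61 bins (4.25%, against 3.39% of all tested bins) and lower in 0 (0.0582% of all), with 443 higher and 5 lower at an unadjusted p under 0.05. That count rests on few libraries. It was 0 without any 1 of the 4 dTAG parental libraries of day 0 or day 21, 1 or 2 without a day 0 clone library, 37 and 34 without replicate 1 of clone 8 or clone 11 at day 21, and 202 and 286 without replicate 2 of clone 8 or clone 11.

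Each clone alone gained bins on the chromosome at day 21, 611 in clone 8 (42.5%, against 35.7% of all tested bins) and 308 in clone 11 (21.4%, against 17.9%). The 237 bins gained in both are 38.8% of the clone 8 bins and 76.9% of the clone 11 bins. Over the 1436 tested bins the 2 clones' day 21 changes had a Pearson r of 0.786, a description across bins that share libraries and the caller. Covered percent was higher in both clones in 1266 bins and lower in both in 27. In the KO clones 848 bins were gained (59.1%, against 37.3% of all tested bins) and 2 lost (0.522% of all), the counts from which the chromosome was chosen, with 471 and 397 gained without KO parental replicate 1 or 2. KO clone 3 alone had 931 gained bins (64.8%, against 43.9% of all tested bins). KO clone 12 alone had 234 (16.3%, against 8.33%).

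Bins were grouped by their mean level in the parental libraries. The 2160 bins without a peak in any of the 10 parental libraries went from a mean covered percent of 0.00743 at day 0 to 1.31 at day 21 in the dTAG clones. The 546 bins with a parental mean of up to 2% went from 0.251 to 5.69, the 436 bins between 2% and 10% from 3.17 to 10.3, and the 69 bins of 10% or more from 11.7 to 16.4. The best covered bins thus had the smallest fold, and the largest differences were in bins with a low to middle level.

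Peaks outside parental sites were narrower than those over them, at day 0 as at day 21. At day 0 the dTAG clone libraries had 433 to 939 peaks on the chromosome, of which 29 to 45 lay outside every peak of the parental libraries. At day 21 they had 2449 to 5017 peaks, and 37.5% to 45.5% of these overlapped a parental peak. The median width at day 21 was 458 to 526 bp for peaks outside and 761 to 803 bp for peaks over parental sites. The authors' fold of the peaks was similar, with medians of 2.66 to 2.89 outside and 2.73 to 2.94 over parental sites. Peaks with -log10 q of at least 5 numbered 193 to 698 per day 21 library, so most peaks were weaker than that. Such peaks made up 0.352% to 3.25% of the peaks outside parental sites and 16.9% to 31.7% of those over them. At day 0 these shares were 0% to 3.45% and 19.0% to 39.6%.

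Gene content set apart 3 kinds of bins, those without a protein-coding gene (1834), those partly within one (416) and those inside one (961). Among tested bins without a gene, 478 of 703 were gained at day 21 (68.0%), among partial ones 180 of 332 (54.2%) and among those inside a gene 201 of 401 (50.1%). On the other chromosomes the shares were 61.1%, 43.1% and 48.4%. Over all bins of each kind on chromosome 18, tested or not, they were 26.1%, 43.3% and 20.9%, so partial bins then came first. The level moved from 0.370% ± 0.139 at day 0 to 3.10% ± 0.893 at day 21 in bins without a gene, from 2.61% to 7.24% in partial bins and from 0.605% to 2.97% in bins inside a gene (means of 4 libraries, SD where given). Partial bins, which hold gene ends, had the highest level at both times, and gene-free bins the largest fold.

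Between 45 and 60 Mb of the long arm, 103 of 166, 115 of 149 and 140 of 177 tested bins of 3 blocks of 5 Mb were gained at day 21 (62.0%, 77.2% and 79.1%, against 59.8% of the tested bins of the chromosome and 51.6% of all). The first of these shares is close to that of the chromosome. In the same order the mean covered percent went from 1.67 to 8.43, from 0.716 to 6.17 and from 1.49 to 9.34. The block from 40 to 45 Mb, with 4 genes, went from 0.0793 to 1.46, with 27 of 48 tested bins gained. The block from 65 to 70 Mb, with 7 genes, was at 0.0806 at day 0, and 15 of its 36 tested bins were gained. These gene-poor blocks stayed low in level, but their folds from day 0 to day 21, 18.4 and 10.3, were the largest of any block. Blocks with more genes could be low too. At day 21 the blocks from 0 to 5 and from 30 to 35 Mb, with 21 genes each, were at 2.20 and 1.80. The block from 35 to 40 Mb, with 16 genes, was at 1.89. The other blocks with 21 or more genes stood higher, between 4.21 and 8.43. A link of level to gene count was not tested. On the short arm 146 of 264 tested bins were gained at day 21 and on the long arm 713 of 1172.

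The KO counts are given beside those of day 21 for the ends of the chromosome, as a description. The KO contrast sets 4 libraries against 2, so its counts can differ from those of day 21 where the changes are alike. In the first 5 Mb 35 of 63 tested bins were gained at day 21 and 10 in the KO clones. The mean covered percent there went from 0.555 at day 0 to 2.20 at day 21 in the dTAG clones. In the KO arm it was 0.416 in the parental line and 1.47 in the clones. From 65 to 70 Mb the counts of gained bins were 15 and 31 of 36, from 70 to 75 Mb 43 and 64 of 77, and from 75 to 80 Mb 39 and 60 of 105. In the last block, from 80 Mb to the end, 7 of 11 tested bins were gained at day 21 and 1 in the KO clones, the other way round. On the short arm the KO count was 87 against 146, and on the long arm 761 against 713. The difference between the arms of the study was not tested.

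**Figure D3:**
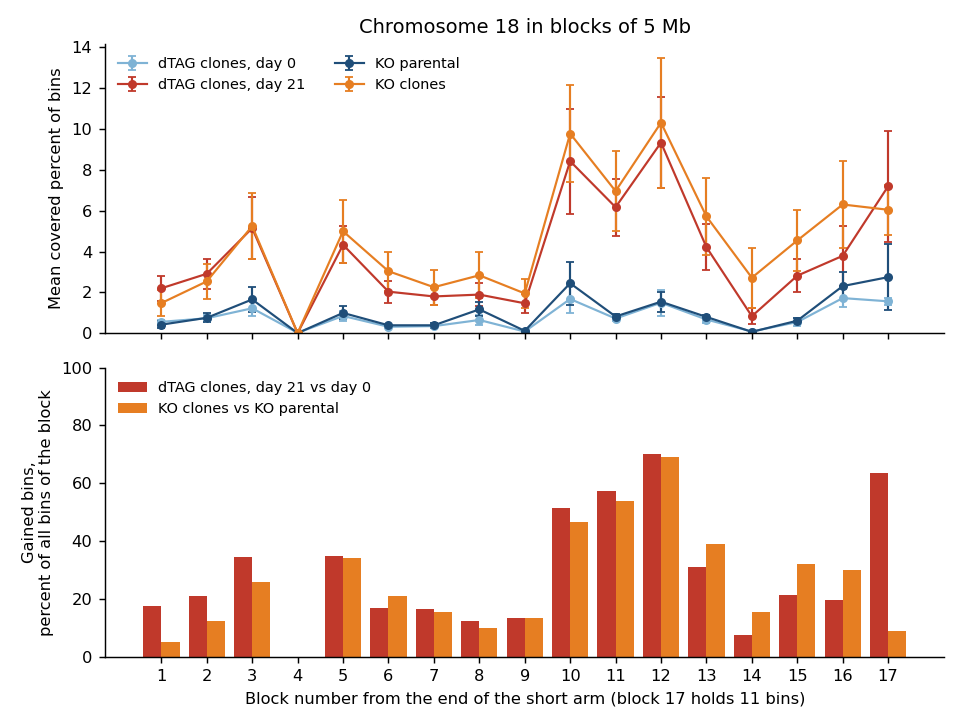
Chromosome 18 in 17 blocks of 5 Mb numbered from the end of the short arm (horizontal axis). The upper panel gives the mean covered percent of all bins of a block in groups of libraries (points are means, bars SD over libraries), and the lower panel the bins gained as a percent of all bins of the block. At day 21 the mean of block 10 is 8.43 and that of block 12 is 9.34, against 1.67 and 1.49 at day 0.

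Many gained bins lay next to each other. How many would do so from the spacing of the tested bins alone was not computed. The 524 bins gained at day 7, day 14 and day 21 formed 243 runs, of which 135 were single bins and 26 held 5 or more, and 389 bins lay in runs of 2 or more. The longest run had 16 bins (chr18:57025001-57425000, 400 kb) and touches WDR7, BOD1L2 and ST8SIA3, a sialyltransferase gene. In clone 8 its replicates had a mean covered percent of 4.69 and 0.557 at day 0 and 18.6 and 15.7 at day 21, and in clone 11 of 2.09 and 0.792 at day 0 and 18.7 and 10.6 at day 21. The day 0 and day 21 libraries did not overlap, which follows in part from choosing bins gained between them. The means of the 4 libraries were 2.03 at day 0, 15.5 at day 7, 16.6 at day 14 and 15.9 ± 3.78 (SD) at day 21. The dTAG parental line had 8.58 and 1.49 at day 21, and the KO clones a mean of 16.3 against 1.04.

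The next run had 14 bins (chr18:57700001-58050000, 350 kb) over ATP8B1, a phospholipid flippase, and the start of NEDD4L, a ubiquitin ligase. Its day 0 values were 2.10 and 0.313 in clone 8 and 0.849 and 0.995 in clone 11, and its day 21 values 14.9, 10.8, 13.9 and 6.19 in the same order. The means were 1.06 at day 0, 11.7 at day 7, 12.3 at day 14 and 11.5 ± 3.93 at day 21. The third longest run had 13 bins on the short arm (chr18:10125001-10450000, 325 kb) and touches no protein-coding gene. Clone 8 had 1.51 and 0.247 there at day 0 and 17.1 and 11.5 at day 21, and clone 11 1.16 and 0.853 at day 0 and 16.6 and 8.55 at day 21. The dTAG parental line had a mean of 2.31 at day 21, and the KO clones had 11.0 against 0.774. In all 3 runs every day 21 library lay above every day 0 library. That adds no support, since the runs were built from bins gained between these same libraries.

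Among single bins the largest gain at day 21 was at the end of NEDD4L (chr18:58400001-58425000). Its covered percent at day 0 was 4.23 and 1.18 in clone 8 and 2.62 and 1.16 in clone 11, and at day 21 34.2, 23.4, 24.1 and 22.0. The difference was 23.6 points (SE 4.90, limma adjusted p = 0.000749), while dTAG parental libraries reached 17.0 at day 21. The bin at chr18:23775001-23800000, inside LAMA3, which encodes a laminin chain of basement membranes, had 4.06, 0, 2.96 and 0 at day 0 and 29.9, 20.0, 27.8 and 19.9 at day 21 (difference 22.6, SE 3.37, limma adjusted p = 5.7e-05). A bin inside ALPK2, an alpha-kinase gene (chr18:58500001-58525000), rose from 0.940, 0, 2.33 and 0 to 24.9, 22.8, 15.6 and 20.1 (difference 20.0, SE 2.17, limma adjusted p = 5e-06). In these 3 bins the day 0 and day 21 libraries of the clones did not overlap. That adds no support, since the bins were picked by their gain between these libraries.

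Of the 10 largest gains, 6 lay in bins without a protein-coding gene. That is near the share of such bins on the chromosome, 478 of the 859 gained and 703 of the 1436 tested. The gene-free bin at chr18:23100001-23125000, 9.56 kb from CABLES1, had 0 in all 4 day 0 libraries and 24.9, 21.9, 24.1 and 13.6 at day 21. The bin 4.63 kb from APCDD1, an inhibitor of Wnt signalling (chr18:10425001-10450000), had 1.98, 0, 4.54 and 0 at day 0 and 28.1, 23.4, 31.8 and 16.6 at day 21 (difference 23.3, SE 3.12). It closes the gene-free run described above. The other gene-free ones lay at chr18:63000001-63025000 near the phosphatase gene PHLPP1 (difference 23.2, SE 3.67), at chr18:63425001-63450000 near VPS4B (22.6, SE 3.85), at chr18:57375001-57400000 near ST8SIA3 (21.3, SE 4.51) and at chr18:63050001-63075000, 48.3 kb from the anti-apoptotic gene BCL2 (20.6, SE 3.95). The tenth, inside the urea transporter gene SLC14A2 (chr18:45650001-45675000), gained 20.0 (SE 3.69). The difference of changes between clones and parental line passed the limma threshold in 3 of the 10, the bins near APCDD1 (adjusted p = 0.0372) and VPS4B (0.0440) and inside ALPK2 (0.0284).

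limma called 2 tested bins lost at day 21. Other bins were lower without passing the test, by up to 10.2 points. The called bin at chr18:7450001-7475000, 92.3 kb from PTPRM, a receptor tyrosine phosphatase gene, had 14.8 and 11.3 in clone 8 and 14.0 and 12.1 in clone 11 at day 0, and 5.76, 4.10, 8.88 and 7.01 at day 21 (difference -6.60, SE 2.47, limma adjusted p = 0.0308). The called bin inside DLGAP1, a scaffold gene of synapses (chr18:3700001-3725000), had 8.48, 2.72, 7.55 and 2.38 at day 0 and 0 in all 4 libraries at day 21 (difference -5.28, SE 1.88, limma adjusted p = 0.0240). Neither was lower at day 21 in the dTAG parental line, where the differences were 5.73 and 2.01. Neither passed the limma test of the difference of changes (adjusted p = 0.0911 and 0.165), and neither was called in a single clone. Between 0 and 3 bins were lost when 1 library was left out.

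In the KO contrast, given as a description, the largest gains were at chr18:57250001-57275000, 77.6 kb from ST8SIA3 (difference 25.5), at chr18:57375001-57400000 (22.2), at chr18:74375001-74400000 near C18orf63 (21.4), at the SLC14A2 bin named above (21.3) and at chr18:59225001-59250000 at GRP, a neuropeptide gene (21.1). The 2 losses lay inside the potassium channel gene KCNG2 (chr18:79800001-79825000, difference -12.3) and at the bin near PTPRM that also fell at day 21 (-9.33).

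**Figure D4:**
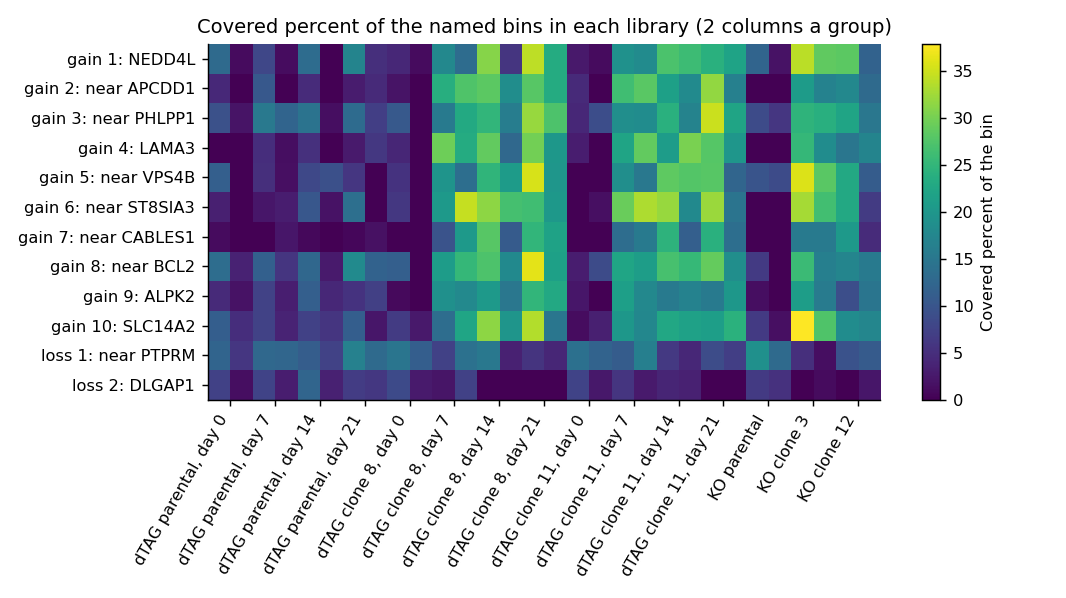
Covered percent (colour scale) of the named bins, the 10 largest gains and 2 losses at day 21 (rows, labelled by the gene they touch or lie near), in each of the 30 libraries (2 columns a group). In the row near CABLES1 the day 0 clone libraries are at 0 and the day 21 ones between 13.6 and 24.9.

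Of 268 protein-coding genes of at least 1 kb, 178 were tested by the covered percent of the gene body. At day 21, 76 were gained (42.7%, against 26.5% of 13977 tested genes) and 0 lost (0.494% of all), with 89 higher and 0 lower at an unadjusted p under 0.05 in limma. The count was 69 at day 7 (against 21.1% of all tested genes), 75 at day 14 (against 22.0%) and, as a description, 78 in the KO clones (against 18.0%). The median difference at day 21 was 2.31 points against 2.05 over all tested genes. Scaled to the same called length, 49 genes were gained and 31 lost at day 21 (27.5% and 17.4%, against 16.1% and 31.6% of all). Without clone 8 or clone 11 replicate 1 of day 21 the count was 49 or 47.

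The largest gain of a gene body was in MC5R, a melanocortin receptor, with 31.0 and 32.5 in clone 8 and 13.1 and 6.80 in clone 11 at day 0 and 42.9, 69.0, 59.8 and 39.8 at day 21 (difference 32.0, SE 9.55, limma adjusted p = 0.0181). Its level also varied widely in the dTAG parental line, from 0.976 to 34.5, and it was 42.3 in the KO parental line and 39.1 in the KO clones. LAMA3 had 4.83, 1.51, 2.66 and 1.87 at day 0 and 19.2, 16.6, 17.8 and 12.1 at day 21 (difference 13.7, SE 2.02, limma adjusted p = 0.000114). PSTPIP2, an adaptor at the actin cytoskeleton, had 2.49, 2.33, 2.45 and 2.65 at day 0 and 14.6, 14.6, 21.2 and 13.0 at day 21 (difference 13.4, SE 1.83, limma adjusted p = 6.45e-05). LAMA3 and PSTPIP2 were higher in each of the 4 day 21 libraries than in any library of the dTAG parental line, and MC5R was too. That adds no support, since these genes were picked by their gain at day 21. None of them passed the limma test of the difference of changes between clones and parental line.

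The other 7 of the 10 were CPLX4, a complexin of the synapse (difference 14.2, SE 2.68), DIPK1C (14.3, SE 4.98), CNDP1, a carnosine dipeptidase (13.1, SE 2.65), HMSD (12.9, SE 3.59), LIPG, endothelial lipase (12.9, SE 2.49), ST8SIA3 (12.8, SE 3.45) and SERPINB12 (12.5, SE 1.51). DIPK1C turned to -3.94 with lists of equal length and to -2.35 among peaks with -log10 q of at least 5, and CNDP1 to -1.80 among peaks with a fold of at least 4. Genes touched by the named runs and bins rose as well, with NEDD4L from 0.769 to 7.49, ATP8B1 from 0.0806 to 6.99, ALPK2 from 3.78 to 15.6 and SLC14A2 from 0.293 to 8.03, all called by limma. WDR7 went from 0.154 to 1.72 and did not pass (adjusted p = 0.0577).

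The SERPINB cluster near 63 Mb encodes intracellular serine protease inhibitors, many of them made by epithelia. The counts of this list and those that follow stand against 26.5% of all tested genes and 42.7% of those on the chromosome gained at day 21. Of 10 genes 7 were tested, and 4 were gained at day 21, SERPINB2, SERPINB5, SERPINB8 and SERPINB12, with 4 at day 7 and 5 at day 14. The median difference at day 21 over the 7 was 7.51 points. SERPINB12 was listed at 0.257, 0, 0 and 0 at day 0 and 12.2, 10.8, 17.0 and 10.2 at day 21, and the dTAG parental line was at 0 at day 21. Of the list members, it alone passed the test against the change of the parental line (difference of changes 12.9, limma adjusted p = 0.0215). That test called 5 of 178 genes (2.81%, against 1.93% of all tested genes), and 0 or 1 higher without any 1 of the 4 dTAG parental libraries of day 0 or day 21. SERPINB5 was at 0 in all day 0 libraries and at 14.9, 8.67, 14.5 and 1.91 at day 21 (adjusted p = 0.0141 in limma). SERPINB3, SERPINB4 and SERPINB7 were not tested for low coverage, and SERPINB4 had none at day 0 or day 21.

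The desmosomal cadherins at 31 Mb, adhesion genes of epithelia, had little coverage before or after. Of the 8 genes of that list, with the neural cadherin gene CDH2, only DSG3 was tested and 0 were gained at day 21. DSC1, DSC3 and DSG4 had no coverage at day 0 or day 21 in any clone library, and CDH2 was at 0.743 and 0.778. DSG3 went from 0 to a mean of 3.11 (limma adjusted p = 0.141) and was at 6.15 in the KO clones. Of the 3 type II cadherins 2 were tested, and CDH20 rose from 0 to 1.59 (limma adjusted p = 0.00311).

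Developmental transcription factor genes, a class often held by Polycomb, were tested in 12 of 13 cases, and 6 were gained at day 21, TSHZ1, SKOR2, ZNF521, TCF4, TGIF1 and ZBTB7C. That share is near the one of the chromosome's tested genes. The median difference was 1.78 points, below the 2.31 of all tested genes on the chromosome. SKOR2, a transcriptional corepressor of neurons, went from 0 to 6.68 and ZBTB7C from 4.86 to 15.6. RAX, an eye field factor, stood high before removal, with 30.7 at day 0 and 34.4 at day 21 (limma adjusted p = 0.663). GATA6 had 3.20 and 5.39 (limma adjusted p = 0.314) and, in the KO arm, 2.89 and 12.0.

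Among 10 genes of lymphoid survival and signalling 7 were tested and 2 gained at day 21, TNFRSF11A and TCF4, a share near that of all tested genes. TNFRSF11A, which encodes the receptor RANK, had 3.35, 1.93, 2.77 and 1.72 at day 0 and 19.2, 9.21, 15.1 and 8.81 at day 21 (difference 10.6, SE 2.46, limma adjusted p = 0.00364), and the change was -0.160 among peaks with -log10 q of at least 5. BCL2, which blocks apoptosis, had 0.745 at day 0 and 1.96 at day 21 (limma adjusted p = 0.178), with 4.90 in the KO clones. PMAIP1, the pro-apoptotic NOXA gene, stood at 22.9 and 23.3. MALT1, PTPN2 and CD226 were too low to be tested.

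Of the SMAD pathway list 3 of 6 genes were tested and 2 gained, LDLRAD4, an inhibitor of TGF-beta signalling, from 0.707 to 5.25 and the corepressor gene TGIF1 from 2.14 to 7.01. SMAD2 and SMAD4 were too low to be tested, with day 21 libraries between 0.505 and 1.52 for SMAD2 and between 0.855 and 1.61 for SMAD4. Of 8 genes of melanocortin and peptide signalling 5 were tested and 1, MC5R, was gained, and ADCYAP1 was at 21.8 and 21.6. Of 12 genes of neural adhesion and synapse 5 were tested and 2 gained, CBLN2, a synapse organizer, from 2.55 to 9.40 and ASXL3, a relative of Polycomb-group genes, from 0.537 to 2.45. SYT4, a synaptotagmin gene, was at 0 at day 0 and had a mean of 1.03 at day 21 (limma adjusted p = 0.293), and 8.29 in the KO clones against 0. CBLN2 turned to -1.07 among peaks with -log10 q of at least 5.

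Housekeeping genes, which every cell uses, had the lowest median difference of the lists. Of 20 genes 11 were tested, 2 were gained at day 21, RBBP8 (DNA end resection) by 1.16 points to 2.35 and TXNL4A (splicing) from 1.72 to 5.51, and the median difference was 0.472. RBBP8 turned to -0.331 when libraries were scaled to the same called length. No gene of any list was lost at day 21.

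Promoter windows (250 bases before to 50 after a start) were matched by symbol for 232 of the 268 genes, 363 windows in all. Of the 222 windows with 16 or more CG, 68.0% ± 7.62 had a peak at day 0 and 77.5% ± 4.11 at day 21 (SD, n = 4 libraries). Of the 59 windows with 6 to 15 CG it was 25.4% ± 8.97 and 35.6% ± 6.49, and of the 82 windows with 0 to 5 CG 0.610% ± 1.22 and 8.84% ± 6.09. CG-rich windows held peaks in most libraries whether NSD2 was present or not, and 96 of them did so in all 30, like the ROCK1 window printed above. The low class had the largest fold and stayed low, and 55 of its 82 windows never had a peak. In the KO arm the shares were 68.5% and 77.1%, 24.6% and 37.7%, and 2.44% and 10.7%.

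Peaks also lay at promoters of active genes. Of the 20 housekeeping genes 19 had a window, 12 had a peak at one in all 30 libraries and 18 in at least 25, and the lowest was NDC80 with 10. H3K27me3 is not known as a mark of such promoters, and what gives the peaks there was not tested. Coverage of marker genes over the whole genome was lowest for plasma cells, with a median of 3.83% over 8 gene bodies and 3 under 1%, against 9.15% for 6 T cell genes, 12.7% for 5 monocyte genes and 15.4% for 5 epithelial genes.

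**Figure D5:**
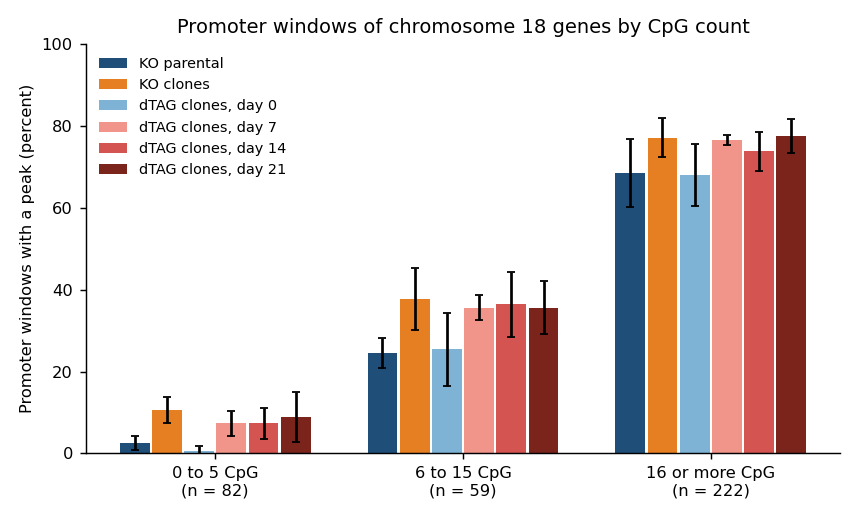
Share of promoter windows on chromosome 18 with a peak (vertical axis, percent) in 3 classes of CG count (horizontal axis), bars for groups of libraries with SD over libraries. Windows with 16 or more CG stand highest in every group, and windows with 0 to 5 CG go from 0.610% to 8.84% in the dTAG clones.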

How the data were processed

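H3K27me3 CUT&Tag peak lists of 30 libraries were used, deposited by the authors as 1 broad peak list per library on hg38. In each deposited list the score is 10 times the -log10 q cut to a whole number, the fold is a ratio of pileup to background, and p and q stand as -log10 values. The submitters' processing notes name fastp 0.24.0, Bowtie2, SAMtools, Picard, MACS3 3.0.2, deepTools 3.5.1, ChIPseeker 1.42.1 and DESeq2. Which control and settings the caller used is not given in the sources used here, and depth is not listed. A background pileup was solved from the fold and p of short peaks, assuming a pseudocount of 1 and a background that is the same over the genome.

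Peaks were merged per library and the percent of each 25 kb bin inside them was computed. Bins with a mean from 1% to 99% over the 30 libraries were fitted with limma 3.58.1 in R 4.3.3 (15 group means, 15 residual degrees of freedom, empirical Bayes with a trend), with Benjamini-Hochberg adjustment over all tested bins of the genome at 0.05. Gene bodies of at least 1 kb were fitted alike. Tables were handled with pandas 2.3.3 and numpy 2.4.6. The fit was tested on simulated data. The 10 largest gains and the losses at day 21, the 5 largest KO gains, the KO losses, the 10 genes with the largest gains and the genes of the lists are named, and genes at named bins and runs were added after values were seen. The members and lists were chosen with earlier results of these data known, so exact permutation tests that had been planned for chromosome-wide values are not printed, nor are p-values of the KO contrast. Alternatives were scaled coverage, equal list lengths, stricter peaks, merging over gaps of 3 kb, pileup as a covariate, other filters, only the groups compared, a replicate block, each clone alone and each library left out.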

Additional observations from a re-analysis of the deposited data

Results flagged for a closer look

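The change from day 0 to day 21 differed between the dTAG clones and the dTAG parental line in 61 tested bins of chromosome 18, by limma's test of the difference of changes. The same test called 5 of 178 tested genes (2.81%, against 1.93% of all tested genes), GNAL (difference of changes 7.44, adjusted p = 0.0487), SLC14A2 (7.76, 0.0436), CFAP53 (12.2, 0.0218), LOC124904304 (3.83, 0.0181) and SERPINB12 (12.9, 0.0215), all higher in the clones. The gene count was 0 with lists of equal length, with gaps merged and with the filter on parental libraries. It was 0 without dTAG parental day 0 replicate 1, 1 without day 0 replicate 2, 0 higher and 1 lower without day 21 replicate 1, and 0 without day 21 replicate 2. Leaving out a day 0 clone library gave 1 to 3, leaving out replicate 1 of either clone at day 21 gave 3, and leaving out replicate 2 gave 15 for clone 8 and 17 for clone 11. In 36 sets of 4 values examined for a library far from the other three, 0 were found, where chance gives about 1 in 20. Each set pools the 4 libraries of both clones, since a group holds 2 libraries.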

How the results depend on the processing

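Counts below are gained bins of chromosome 18 unless said otherwise, in the order day 7, day 14, day 21, difference of changes at day 21, and KO, where the counts as reported were 689, 835, 859, 61 and 848, with 0, 0, 2, 0 and 2 lost. With lists of equal length they were 35, 73, 70, 1 and 32 gained and 4, 8, 13, 1 and 4 lost. With -log10 q of at least 5 they were 0 gained in each, and 0 lost at day 21 and in the KO clones. With a fold of at least 4 they were 0 gained in each, and 1, 1, 1, 1 and 0 lost. Scaled to the same called length, 62, 85, 87, 14 and 28 were lost, and the difference of changes was called higher in 129. Merging over gaps of 3 kb gave 325 at day 7, 491 at day 14 and 1 for the difference of changes, with 0 lost at day 21 and in the KO clones. Pileup as a covariate gave 423 at day 7, 569 at day 21 and 99 for the difference of changes, with 5, 13, 18, 2 and 8 lost. The filter on parental libraries, chosen after seeing the data, gave 300, 286, 312, 0 and 199, with 1 lost in the KO clones. Only the groups compared gave 192 for the difference of changes and 485 for KO. Without a filter the difference of changes was called higher in 24 and lower in 1, and 1 bin was lost in the KO clones. Clone 11 alone gave 308 at day 21, and each clone alone 0 lost.

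The fit as reported did not use the replicate numbers to pair the samples. Yet replicates of the same number deviated together. In each group the difference between replicate 1 and replicate 2 was taken bin by bin, and these differences were correlated between groups. All 105 pairs of groups correlated positively (lowest 0.011, median 0.187, highest 0.698), 72 of them above 0.1. The replicate 1 list was longer in 13 of 15 groups. Same-numbered libraries thus shared some variation that the fit as reported left out, and its source was not tested. With the replicate block, 779, 911, 928, 152 and 938 bins were gained and 0, 3, 4, 1 and 3 lost, and 87 genes at day 21 and 94 in the KO clones were gained.

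For genes (76 at day 21 and 78 in the KO clones, 0 lost), scaling gave 49 gained and 31 lost at day 21 and 6 lost in the KO clones, equal length 10 and 6 gained and 2 and 1 lost, and -log10 q of at least 5 or a fold of at least 4 gave 0. Pileup gave 43 gained and 2 lost at day 21 and 1 lost in the KO clones, the parental filter 38 and 34, only the groups compared 25 in the KO clones, and no filter 1 lost in the KO clones.

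The difference in covered percent of the chromosome (2.52, 2.74, 2.87 and, for KO, 3.51) was 0.315, 0.394, 0.365 and 0.390 with equal length, 0.184, 0.115, 0.201 and 0.159 with -log10 q of at least 5, and 4.01, 4.48, 4.72 and 5.81 with gaps merged. The difference in the ratio to the rest (0.448, 0.496, 0.473 and 0.611) was 0.266, 0.333, 0.308 and 0.329, then 0.186, 0.244, 0.235 and 0.264, and 0.514 at day 21 with gaps merged. For gene-free bins at day 21 (0.659) it was 0.542, 0.286 and 0.700.

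Leaving out 1 library gave 484 to 633 at day 7, 519 to 907 at day 14, 629 to 904 at day 21, 0 to 286 for the difference of changes and 397 to 867 for KO, with 0 to 1, 0 to 1, 0 to 3 and, for KO, 0 to 2 lost. Genes were 47 to 79 at day 21 and 45 to 83 in the KO clones, the lowest without KO parental replicate 2. The parental change in covered percent was -0.0343 to 0.867. Single items that turned were the bin near C18orf63 at day 21 (-0.351 with equal length), the KCNG2 bin at day 21 (6.40 with gaps merged, -3.06 as reported), DIPK1C (-3.94 with equal length, -2.35 with -log10 q of at least 5), CNDP1 (-1.80 with a fold of at least 4), TNFRSF11A (-0.160) and CBLN2 (-1.07) with -log10 q of at least 5, RBBP8 (-0.331 scaled) and CPLX4 in the KO clones (-1.06 with a fold of at least 4). The causes were not tested. Depth is not listed, and an uncovered bin is not shown to lack the mark.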
